A study of Mus musculus with 10 samples.

Results

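The mitochondrial genome of the mouse gave 37 rows of the deposited gene count table, out of 33212 rows in all. The members were chosen by symbol, as every row whose symbol begins with mt-. They are 13 mRNAs, 2 rRNAs and 22 tRNAs, which is the full gene content annotated on the mitochondrial chromosome. Each had an identifier and symbol that matched the GENCODE M21 annotation, and the span given there was also found in RefSeq. The study exposed αTC1 cells, a mouse cell line that stems from a glucagon-secreting α-cell tumour of the pancreas, for 48 h to 10 µM enzalutamide or to DMSO, the solvent used as control. Enzalutamide blocks the androgen receptor and is used against prostate cancer. Both groups were grown in low-glucose DMEM with fetal bovine serum and held 5 libraries each, made from RNA captured by its poly(A) tail. The line is a tumour line kept in culture, so the data describe that line and not α cells in an islet.

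Mitochondrial DNA is a small circle that is read on both strands into long precursor RNAs. Between most of its genes sits a tRNA, and removal of the tRNAs frees the mRNAs and rRNAs. All 13 mRNAs encode membrane subunits of the respiratory chain or of ATP synthase: 7 belong to complex I (NADH dehydrogenase), 1 to complex III (cytochrome bc1), 3 to complex IV (cytochrome c oxidase) and 2 to complex V (ATP synthase). The other subunits of these complexes are encoded in the nucleus. Most mitochondrial mRNAs and the rRNAs carry short 3′ tails of adenosine, and mature tRNAs end in CCA, so capture by poly(A) tail retains the 3 classes to different degrees. Levels of rRNA and tRNA rows here are therefore levels of what was captured and counted.

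The libraries held between 59557697 and 68603842 counts, and edgeR scaling factors were between 0.983 and 1.02. Among 14156 genes that passed the filter on low counts, 37.8% differed between the groups at an adjusted p under 0.05 (edgeR quasi-likelihood test with Benjamini-Hochberg adjustment over all genes tested, as for every adjusted p below unless another tool is named). The share called higher under enzalutamide was 19%, the share called lower was 18.8%, and the median log2 fold change over all genes was 0.01. Of the genes called, 50.3% were higher, and with libraries scaled by their total counts alone 60.7% were. Gcg, the glucagon gene that marks the line, took 1.51% ± 0.0429 (SD, n = 5) of counts in DMSO and 0.856% ± 0.0363 (n = 5) in enzalutamide. Ins1, Pdx1, Sst and Ppy, which define other islet cells, had 0 counts in all 10 libraries, and with Ins2 and Ghrl, which were detected, the 6 markers of those cells summed to between 1.05 and 1.94 CPM. The summed level of 8 acinar and duct markers was at most 8.09 CPM (counts divided by the scaled library size and expressed per 1e6), of 6 fibroblast markers at most 9.91 CPM, and of 7 endothelial and blood markers at most 1.64 CPM.

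All 37 members passed the filter on low counts. Under enzalutamide 10 of them rose, 6 fell and 21 did not pass the test, so 16 of 37 were called, beside 37.8% of all genes. The members moved in both directions, with a median log2 fold change of 0.02 and a range from -0.91 to 0.47. The mRNAs leaned upward: 8 of 13 rose, 2 fell and 3 did not pass, with a median of 0.15. All 6 mRNAs outside complex I rose, and both mRNAs that fell, mt-Nd1 and mt-Nd2, encode subunits of complex I. Of the rRNAs, mt-Rnr2 fell and mt-Rnr1 did not pass. Of 22 tRNAs, 2 rose, 3 fell and 17 did not pass, with a median of -0.11 that became 0.0047 when trends with GC content and length were removed.

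**Figure D1:**
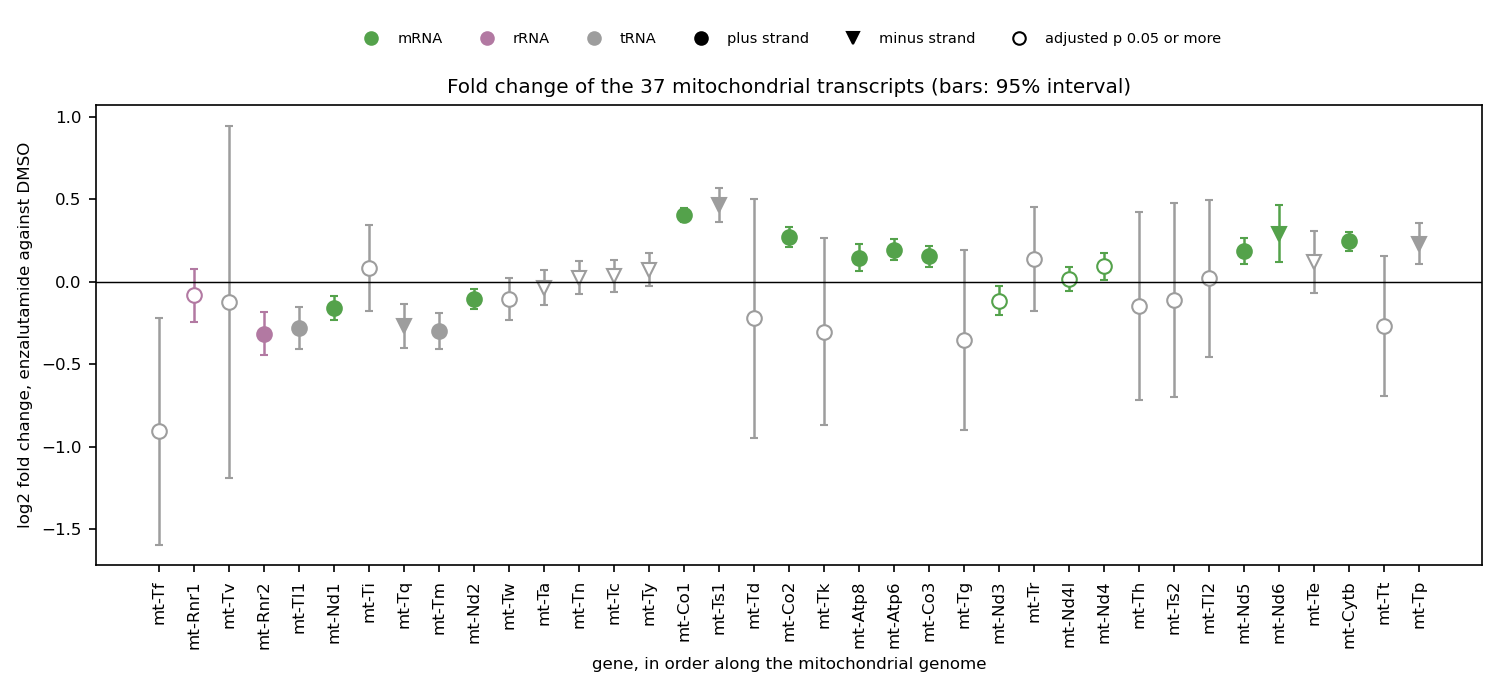
Log2 fold change of each of the 37 transcripts, enzalutamide against DMSO (y axis), with genes in their order along the mitochondrial genome (x axis). Bars are 95% intervals, filled symbols passed the test, and triangles are genes on the minus strand; the genes called lower lie from mt-Rnr2 to mt-Nd2, and the genes called higher lie from mt-Co1 to mt-Tp.

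Called members were grouped along the genome. The 6 members called lower (mt-Rnr2, mt-Tl1, mt-Nd1, mt-Tq, mt-Tm and mt-Nd2) all lie between mt-Rnr2 and mt-Nd2. The 10 called higher all lie from mt-Co1 onward. Neighbouring genes on the same strand share precursor RNAs, and neighbours can share reads at their junctions, so these calls are not independent of each other. Of the called members, mt-Tq, mt-Ts1, mt-Nd6 and mt-Tp lie on the minus strand and the others on the plus strand.

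Together the mitochondrial rows took a larger share of each library under enzalutamide. The share of all counts was 6.27%, 6.19%, 6.37%, 6.18% and 6.64% in DMSO libraries 1 to 5, and 7.21%, 7.88%, 7.36%, 7.25% and 7.36% in enzalutamide libraries 1 to 5. All enzalutamide libraries were above all DMSO libraries, with means of 6.33% ± 0.188 (SD, n = 5) and 7.41% ± 0.268 (n = 5) and a ratio of 1.17. The mRNAs made up nearly all of it, at 6.19% ± 0.178 in DMSO and 7.28% ± 0.264 in enzalutamide. The rRNAs took 0.101% ± 0.0128 and 0.0864% ± 0.00548, and the tRNAs 0.0408% ± 0.00286 and 0.042% ± 0.00135, with overlapping groups in both classes. A share depends on all other genes as well, and the share of Gcg alone fell by 0.652 percentage points while that of the mitochondrial rows gained 1.08. In RNA from a whole culture, a change in the make-up of the cells and a change in RNA per cell cannot be told apart.

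By complex, the shares did not move alike. The 3 mRNAs of complex IV went from 2.46% ± 0.0504 of all counts in DMSO to 3.21% ± 0.103 in enzalutamide (SD, n = 5 each), a ratio of 1.3. The mRNA of complex III went from 0.737% ± 0.0211 to 0.895% ± 0.0372, and those of complex V from 0.486% ± 0.0151 to 0.564% ± 0.0276. In each of these complexes every enzalutamide library was above every DMSO library. The 7 mRNAs of complex I took 2.5% ± 0.131 and 2.61% ± 0.109, and the groups overlapped.

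**Figure D2:**
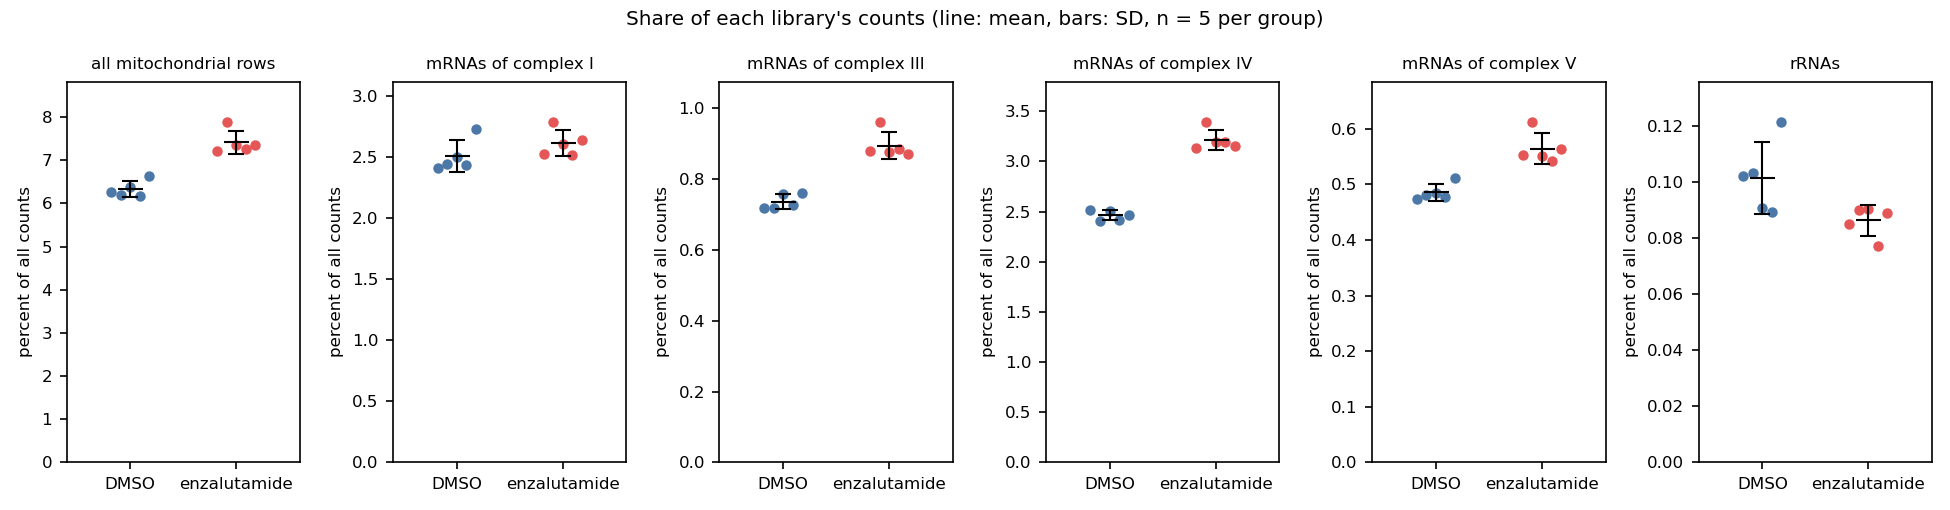
Percent of all counts in each library (y axis) for all mitochondrial rows, the mRNAs of each complex and the rRNAs, in DMSO and enzalutamide (x axis). Points are libraries, lines are means and bars are SD (n = 5 each); the groups are apart for all rows, complex III, complex IV and complex V, and overlap for complex I and the rRNAs.

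Complex IV passes electrons to oxygen, and its 3 mitochondrial mRNAs all rose. mt-Co1, the catalytic subunit that holds the oxygen-binding centre, had the highest level of all genes in both groups. Its levels were 17088, 16221, 16752, 16291 and 16702 CPM in DMSO libraries 1 to 5 and 21364, 23236, 21906, 21912 and 21688 CPM in enzalutamide libraries 1 to 5. The groups did not overlap, and the difference between them was larger than the spread within either. mt-Co1 rose by 0.41 on the log2 scale (SE 0.0223, adjusted p = 3.24e-10), a ratio of means of 1.33, the largest change among the 13 mRNAs.

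mt-Co2 carries the copper centre that accepts electrons from cytochrome c. It measured 4907, 4816, 5065, 4946 and 5105 CPM in DMSO and 5912, 6600, 5828, 5771 and 5885 CPM in enzalutamide. No enzalutamide library reached down to the DMSO range, and library 2 was the highest of them. The log2 fold change was 0.27 (SE 0.0318, adjusted p = 3.16e-06). mt-Co3, a core subunit without a metal centre, measured 3416, 3199, 3521, 3262 and 3315 CPM in DMSO and 3623, 3956, 3782, 3778 and 3461 CPM in enzalutamide. Here library 5 of enzalutamide lay below library 3 of DMSO, so the groups overlapped. mt-Co3 rose by 0.15 (SE 0.0335, adjusted p = 0.0014).

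The mRNA of mt-Cytb, the cytochrome b of complex III, rose in the same range. Its levels were 7263, 7228, 7682, 7389 and 7733 CPM in DMSO and 8681, 9577, 8666, 8743 and 8566 CPM in enzalutamide. The groups were apart, with enzalutamide library 2 the highest. The log2 fold change was 0.25 (SE 0.0295, adjusted p = 4.25e-06).

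Complex V contributes mt-Atp8 and mt-Atp6, subunits of the membrane part of ATP synthase through which protons pass. Their reading frames overlap on the same strand, and the 75 bases that end mt-Atp8 are shown because 43 of them, in capitals, also belong to mt-Atp6 (GENCODE M21 transcript, GRCm38/mm10, chrM:7895-7969, plus strand).
mt-Atp8 to mt-Atp6: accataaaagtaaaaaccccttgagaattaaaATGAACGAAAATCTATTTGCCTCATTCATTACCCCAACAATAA
A read within the capitals belongs to both rows, and both genes are known to be carried on a shared mRNA. mt-Atp6 measured 3558, 3535, 3540, 3480 and 3745 CPM in DMSO and 3993, 4475, 4019, 3899 and 4039 CPM in enzalutamide. The groups did not overlap, and mt-Atp6 rose by 0.19 (SE 0.0325, adjusted p = 0.000141). mt-Atp8 measured 1230, 1305, 1360, 1371 and 1466 CPM in DMSO and 1453, 1621, 1416, 1450 and 1515 CPM in enzalutamide. DMSO library 5 lay within the enzalutamide range, so these groups overlapped. mt-Atp8 rose by 0.15 (SE 0.0426, adjusted p = 0.0108), a call that ended when trends with GC content and length were removed (adjusted p = 0.0689).

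Complex I takes electrons from NADH, and its 7 mitochondrial mRNAs split 3 ways: 2 rose, 2 fell and 3 did not pass. Their median log2 fold change was 0.02. mt-Nd1, which lines the quinone channel, measured 6257, 6339, 6614, 6357 and 7102 CPM in DMSO and 5823, 6431, 5809, 5586 and 5648 CPM in enzalutamide. Only enzalutamide library 2 lay within the DMSO range. mt-Nd1 fell by 0.16 (SE 0.0379, adjusted p = 0.00319), or 10.3% of its DMSO mean.

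mt-Nd2, one of the proton-pumping subunits, measured 4807, 4874, 5136, 4928 and 5267 CPM in DMSO and 4542, 4986, 4629, 4491 and 4630 CPM in enzalutamide. Again it was only library 2 of enzalutamide that reached the DMSO range. mt-Nd2 fell by 0.10 (SE 0.0304, adjusted p = 0.0121), and with libraries scaled by their total counts alone it no longer passed (adjusted p = 0.0628).

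mt-Nd5, the largest proton-pumping subunit, went the other way. It measured 6232, 6375, 6649, 6722 and 7380 CPM in DMSO and 7038, 7888, 7627, 7532 and 7921 CPM in enzalutamide. The groups overlapped through DMSO library 5 and enzalutamide library 1, and mt-Nd5 rose by 0.19 (SE 0.0395, adjusted p = 0.00108). mt-Nd6, the only mRNA on the minus strand, measured 1363, 1335, 1188, 1142 and 1640 CPM in DMSO and 1435, 1913, 1688, 1402 and 1721 CPM in enzalutamide. Its libraries spread more than those of any other mRNA and overlapped between groups. mt-Nd6 rose by 0.29 (SE 0.0887, adjusted p = 0.0149), which did not pass without a filter on low counts (adjusted p = 0.0649) or in DESeq2 (adjusted p = 0.052).

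mt-Nd5 and mt-Nd6 run toward each other and share 14 bases on opposite strands. The last 40 bases of each are shown, with the shared bases in capitals (GENCODE M21, GRCm38/mm10, chrM:13526-13565, plus strand, and chrM:13552-13591, minus strand).
mt-Nd5 end: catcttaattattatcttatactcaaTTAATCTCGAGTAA
mt-Nd6 end: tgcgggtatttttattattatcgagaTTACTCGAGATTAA
The sources used here do not give the strand setting of the counting, and reads of one strand cannot be told apart from reads of the other in this stretch, or wherever a precursor RNA runs across mt-Nd6 on the plus strand. The log2 ratio of mt-Nd6 to mt-Nd5 counts was -2.33 ± 0.177 in DMSO and -2.23 ± 0.142 in enzalutamide (SD, n = 5 each), a difference with p = 0.333 in an exact permutation test, two-sided, and the same value after adjustment over the 2 ratios tested. The rise of mt-Nd6 relative to mt-Nd5 was thus within the spread between libraries.

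The complex I mRNAs that did not pass were mt-Nd3, mt-Nd4l and mt-Nd4. mt-Nd3, a small core subunit, measured 443, 428, 406, 377 and 409 CPM in DMSO and 382, 403, 392, 384 and 344 CPM in enzalutamide. Its log2 fold change was -0.11 (95% interval -0.20 to -0.03, adjusted p = 0.0527). It lay so near the threshold that it passed in 12 of the alternative fits. mt-Nd4 measured 4421, 4388, 4354, 4273 and 5036 CPM in DMSO and 4701, 5222, 4680, 4542 and 4827 CPM in enzalutamide. DMSO library 5 stood apart from the other DMSO libraries. With all libraries the log2 fold change was 0.09 (95% interval 0.01 to 0.18, adjusted p = 0.092), and without DMSO library 5 it was 0.14 (adjusted p = 0.00403).

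mt-Nd4l measured 839, 837, 929, 926 and 963 CPM in DMSO and 913, 900, 934, 896 and 908 CPM in enzalutamide, with a log2 fold change of 0.02 (95% interval -0.05 to 0.09, adjusted p = 0.732). The whole mt-Nd4l transcript is shown because a nuclear copy of it is counted in a row of its own, and its last 7 bases, in capitals, also begin mt-Nd4 (GENCODE M21, GRCm38/mm10, chrM:9877-10173, plus strand).
mt-Nd4l: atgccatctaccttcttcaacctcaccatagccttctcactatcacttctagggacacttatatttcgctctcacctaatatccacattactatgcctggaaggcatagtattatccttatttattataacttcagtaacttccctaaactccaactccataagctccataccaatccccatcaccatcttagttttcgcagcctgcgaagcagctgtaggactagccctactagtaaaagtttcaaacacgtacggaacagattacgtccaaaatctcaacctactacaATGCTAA
Gm10222, an unprocessed pseudogene at chr1:24612407-24612700, is 100% identical to it over 294 of its 297 bases. That row held between 50996 and 63209 counts per library, which was 90.7% to 101% of the counts of mt-Nd4l. Like mt-Nd4l, Gm10222 did not pass, at a log2 fold change of 0.07 with SE 0.0381 and adjusted p = 0.164. Counts of these 2 rows cannot be assigned to one source or the other.

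Copies of the mitochondrial genome inserted in nuclear chromosomes were searched for among the annotated transcripts. At 90% identity or more over at least 100 bases, 17 nuclear transcripts matched 11 of the 13 mRNAs. Of these, 7 were nearly identical copies on chromosome 1 (99.7% identity or more), of mt-Co1 in part, mt-Co2, mt-Atp6, mt-Co3, mt-Nd3, mt-Nd4l and mt-Nd4 in part. Only 2 of the 17 are rows of the count table, Gm10222 and Gm4076, the latter with 11 to 38 counts per library beside the far larger counts of mt-Nd5, which it resembles. The sources used here do not say what became of reads with more than 1 matching place. Values of the 7 mRNAs with a nearly identical copy are uncertain to that extent. With the 2 copy rows added to mt-Nd4l and mt-Nd5, the same numbers of mRNAs were called higher and lower. That sum left the counts of mt-Co1, mt-Co2, mt-Atp6, mt-Co3, mt-Nd3 and mt-Nd4 as they were, because their copies have no row. It therefore cannot speak to reads of these mRNAs that were split or lost.

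**Figure D3:**
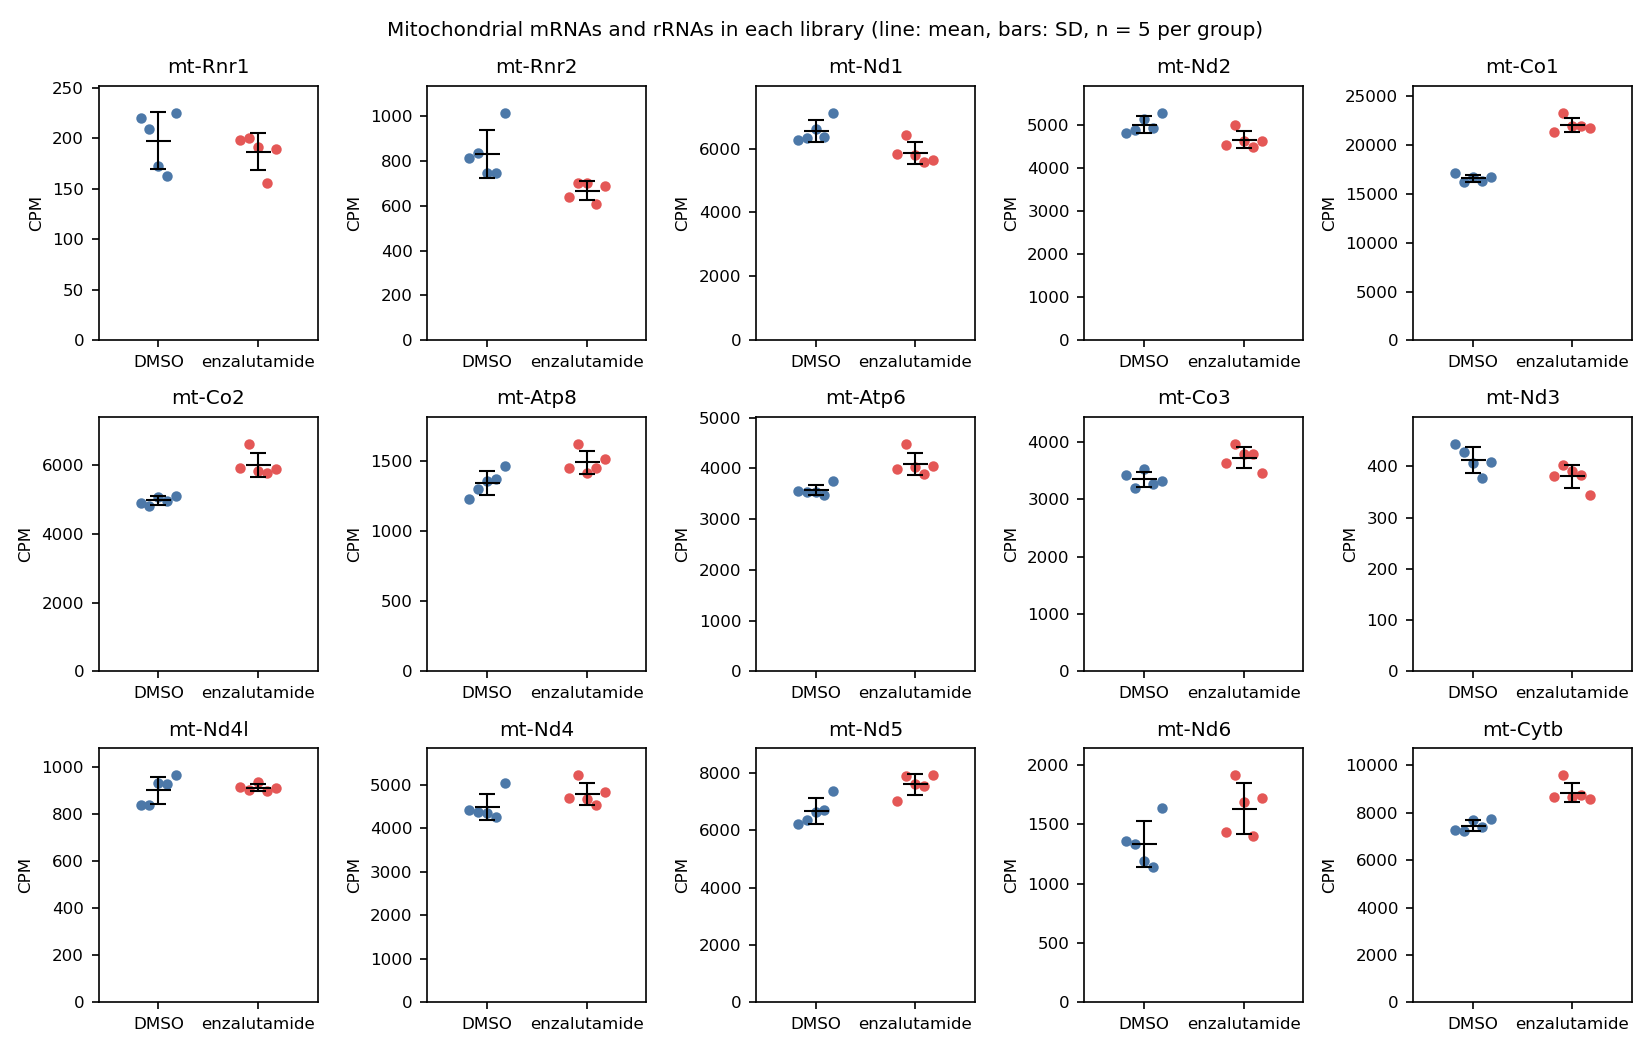
Level in CPM (y axis) of each of the 13 mRNAs and 2 rRNAs in DMSO and enzalutamide (x axis), with genes in genome order. Points are libraries, lines are means and bars are SD (n = 5 each); the groups are apart for mt-Co1, mt-Co2, mt-Atp6, mt-Cytb and mt-Rnr2, with DMSO library 5 high for mt-Rnr2 and mt-Nd4.

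Counted over all classes, the CPM values of the groups did not overlap for 5 members that were higher in enzalutamide and 3 that were lower. Among all genes tested, 13.1% did not overlap and were higher, 13.7% did not overlap and were lower, and 26.8% did not overlap in either direction. The 5 were mt-Co1, mt-Co2, mt-Atp6, mt-Cytb and mt-Ts1, and the 3 were mt-Rnr2, mt-Tm and mt-Tf. GC content of the mRNAs ranged from 31.9% to 41.1% and their length from 204 to 1824 bases. Across the 13 mRNAs, the correlation of the log2 fold change with GC content was 0.24 and with log length 0.23 (Pearson's r). It is a description over genes that share libraries and, apart from mt-Nd6 on the minus strand, precursors.

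Because the mRNAs did not move by a common factor, their make-up shifted. Of the counts on the 13 mRNAs, mt-Co1 held 26.5% ± 0.809 in DMSO and 30.6% ± 0.374 in enzalutamide (SD, n = 5 each). mt-Co2 went from 7.93% ± 0.115 to 8.33% ± 0.168. In both, every enzalutamide library was above every DMSO library. All of mt-Nd1, mt-Nd2, mt-Nd3, mt-Nd4l and mt-Nd4 held a smaller part in every enzalutamide library than in any DMSO library. Leaving mt-Co1 out of the sum changed the difference for mt-Nd4 from -0.512 to -0.166 percentage points. Adding the counts of nuclear copies to their mitochondrial genes changed that for mt-Nd4l from -0.167 to -0.277. mt-Nd1 went from 10.4% ± 0.239 to 8.14% ± 0.198, and mt-Nd2 from 7.98% ± 0.128 to 6.47% ± 0.0518. The other 6 overlapped.

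Taken by complex, complex I went from 40.4% ± 1.05 of the mRNA counts to 35.9% ± 0.487, and complex IV from 39.8% ± 1.06 to 44.1% ± 0.425. Complex I was thus ahead of complex IV in 3 of 5 DMSO libraries and behind it in all enzalutamide libraries. Complexes III and V overlapped between groups, at 11.9% ± 0.18 against 12.3% ± 0.183 and 7.85% ± 0.0948 against 7.74% ± 0.129. These parts add up to the whole, so a larger part for mt-Co1 lowers the others. With mt-Co1 left out of the sum, the part of complex I in enzalutamide still fell by 3.34 percentage points against DMSO, complex IV held 1.38 more, complex III 1.49 more, and complex V turned from less to 0.469 more.

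**Figure D4:**
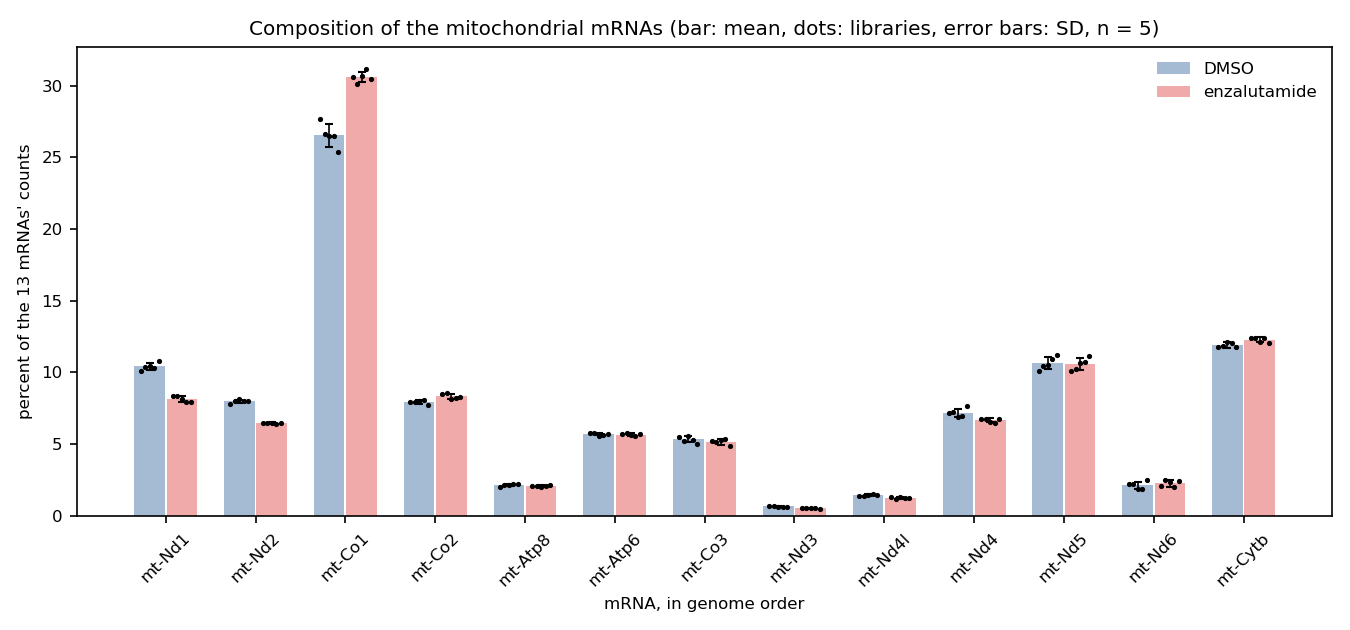
Percent of the counts of the 13 mRNAs that fell on each mRNA (y axis), with mRNAs in genome order (x axis). Bars are means, dots are libraries and error bars are SD (n = 5 each); mt-Co1 and mt-Co2 are higher in every enzalutamide library, and mt-Nd1, mt-Nd2, mt-Nd3, mt-Nd4l and mt-Nd4 are lower.

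Levels per length allow the mRNAs to be compared with each other, in CPM per kilobase of annotated transcript. In DMSO mt-Co1 stood first at 10751 ± 231 (SD, n = 5). It was followed by mt-Co2 at 7263 ± 173, mt-Nd1 at 6828 ± 360, mt-Atp8 at 6599 ± 427 and mt-Cytb at 6520 ± 206 CPM per kilobase. Within those 4 each overlapped the one after it, while mt-Co2 (7040 to 7464) and mt-Cytb (6318 to 6760) did not overlap. mt-Cytb stood apart from mt-Atp6, the next in the order. mt-Atp6 at 5245 ± 149, mt-Nd2 at 4819 ± 185 and mt-Co3 at 4264 ± 163 each stood apart from the next in order. Then came mt-Nd5, mt-Nd4, mt-Nd4l and mt-Nd6, from 3658 ± 243 down to 2569 ± 376 CPM per kilobase. Within these, each overlapped the one after it, and mt-Nd6 stood apart from mt-Nd3. mt-Nd3 was the lowest mRNA at 1186 ± 72.2.

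In enzalutamide the ends of that order were the same, with mt-Co1 at 14253 ± 463 and mt-Nd3 at 1095 ± 64.1 CPM per kilobase. mt-Nd1 went from rank 3 to rank 5 and mt-Cytb from rank 5 to rank 3. By CPM, 9 of the 13 mRNAs were among the 20 highest genes of the whole table in each group. Short transcripts such as mt-Atp8, mt-Nd3 and mt-Nd4l lose fragments at their ends, so their level per length is less certain. The place of mt-Nd4l in the order also leaves out its copy row Gm10222. In DMSO that row held 860 ± 56.6 CPM beside 899 ± 57.5 for mt-Nd4l (SD, n = 5), so mt-Nd4l may stand too low.

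Many mitochondrial mRNAs end where the next tRNA begins, and some lack a full stop codon, which the poly(A) tail completes. The last 30 bases of the 3 mRNAs whose annotated transcripts end in an incomplete stop are shown beside mt-Co1, which has a complete one, with the stop or its remnant in capitals (GENCODE M21, GRCm38/mm10, plus strand; chrM:9361-9390, chrM:11515-11544, chrM:15259-15288 and chrM:6843-6872 in turn).
mt-Co3: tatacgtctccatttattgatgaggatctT
mt-Nd4: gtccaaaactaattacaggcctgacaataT
mt-Cytb: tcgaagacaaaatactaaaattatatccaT
mt-Co1: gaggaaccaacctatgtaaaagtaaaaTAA
Of the 3 with an incomplete stop, mt-Co3 and mt-Cytb rose and mt-Nd4 did not pass. Of the 10 with a complete stop as annotated, 6 rose, 2 fell and 2 did not pass. Among all genes, 19% were called higher and 18.8% lower. The 2 that fell, mt-Nd1 and mt-Nd2, end in TAG and share their last 2 bases with mt-Ti and mt-Tw on the same strand. Cut where the tRNA begins, both would end in T like the 3 above. The counts by stop therefore hold for the annotated ends only.

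The rRNA rows were low per length beside the mRNAs. mt-Rnr2, the 16S RNA of the large mitochondrial ribosomal subunit, stood at 525 ± 68.5 and mt-Rnr1, the 12S RNA of the small subunit, at 207 ± 29.7 CPM per kilobase in DMSO (SD, n = 5). mt-Rnr2 measured 811, 833, 747, 747 and 1011 CPM in DMSO and 639, 699, 700, 608 and 689 CPM in enzalutamide. The groups were apart, with DMSO library 5 high. mt-Rnr2 fell by 0.31 (SE 0.0665, adjusted p = 0.00112), or 19.6% of its DMSO mean.

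mt-Rnr1 measured 220, 209, 173, 162 and 225 CPM in DMSO and 198, 200, 191, 155 and 189 CPM in enzalutamide. The groups overlapped, and the log2 fold change was -0.08 (95% interval -0.24 to 0.08, adjusted p = 0.48). The ratio of mt-Rnr2 to mt-Rnr1 counts was 3.69, 3.99, 4.33, 4.6 and 4.5 in DMSO libraries 1 to 5 and 3.22, 3.5, 3.66, 3.92 and 3.65 in enzalutamide libraries 1 to 5. It overlapped between the groups. The log2 ratio was 2.07 ± 0.132 in DMSO and 1.84 ± 0.103 in enzalutamide, and the difference of -0.23 passed an exact two-sided permutation test (p = 0.0159, 0.0317 after adjustment over the 2 ratios tested, where 5 against 5 allows no p below 0.00794).

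Most tRNA rows were low per length beside their neighbours, and they differed widely. In DMSO their levels ran from 2.73 CPM per kilobase for mt-Tv, the valine tRNA, to 1506 for mt-Te, the glutamate tRNA. Set against the lower of the neighbouring mRNA or rRNA genes, a tRNA row stood at a median of 4.66% of that gene's level per length, with a range from 0.0569% to 169%. Reads from precursors or from neighbouring mRNAs that reach into a tRNA are counted with it, and their part in these values was not tested. The 2 tRNAs with the highest level per length, mt-Te and mt-Tl1 (a leucine tRNA), and the called tRNA with the largest fold change, mt-Ts1 (a serine tRNA), are shown whole (GENCODE M21, GRCm38/mm10; chrM:14071-14139, minus strand; chrM:2676-2750, plus strand; chrM:6870-6938, minus strand). In mt-Ts1 the capitals mark the 3 bases that pair with the stop codon of mt-Co1 on the other strand.
mt-Te: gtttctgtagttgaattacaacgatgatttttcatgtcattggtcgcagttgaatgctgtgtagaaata
mt-Tl1: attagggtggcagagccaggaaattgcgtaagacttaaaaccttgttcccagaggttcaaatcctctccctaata
mt-Ts1: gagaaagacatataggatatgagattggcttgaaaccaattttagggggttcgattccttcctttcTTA

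mt-Ts1 measured 35.4, 31.5, 33.2, 33.2 and 33.1 CPM in DMSO and 43.9, 51.8, 44.6, 45.6 and 44.2 CPM in enzalutamide. The groups were apart. mt-Ts1 rose by 0.47 (SE 0.052, adjusted p = 1.78e-06), next to a rise of 0.41 for mt-Co1, whose 3′ end it adjoins on the opposite strand. Without a known strand setting, reads that run past the end of mt-Co1 and reads of mt-Ts1 cannot be told apart. mt-Tp, the proline tRNA, also lies on the minus strand, and it measured 19.6, 19.2, 17.8, 16.8 and 20.3 CPM in DMSO and 22.3, 23.5, 21.8, 20.1 and 22.5 CPM in enzalutamide. Only enzalutamide library 4 lay within the DMSO range, and mt-Tp rose by 0.23 (adjusted p = 0.00666). With trends with GC content and length removed the change was 0.36.

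The tRNAs that fell lie next to genes that fell. mt-Tl1, between mt-Rnr2 and mt-Nd1, measured 64.1, 65.3, 64.1, 59.8 and 79.6 CPM in DMSO and 53.7, 59.9, 54.6, 50.7 and 54.9 CPM in enzalutamide. The groups overlapped by a narrow margin at enzalutamide library 2, and DMSO library 5 was high, as it was for mt-Rnr2. mt-Tl1 fell by 0.28 (adjusted p = 0.00219). After removal of GC and length trends the log2 fold change was -0.16 and no longer passed (adjusted p = 0.0812).

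mt-Tm (methionine) and mt-Tq (glutamine) lie between mt-Nd1 and mt-Nd2. mt-Tm measured 27.6, 30.9, 31.9, 31.8 and 33.1 CPM in DMSO and 23.4, 25.7, 24.8, 26.7 and 25.8 CPM in enzalutamide, with no overlap. mt-Tm fell by 0.30 (adjusted p = 0.000415), and by 0.17 with GC and length trends removed, where it still passed (adjusted p = 0.0446 at most over all alternatives). mt-Tq, on the minus strand, measured 15.3, 17.5, 17.2, 17.2 and 18.9 CPM in DMSO and 12.9, 14.6, 13.8, 15.5 and 14.6 CPM in enzalutamide. It overlapped only through DMSO library 1. mt-Tq fell by 0.27 (adjusted p = 0.00433), a call that ended with GC and length trends removed (adjusted p = 0.0607).

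Over the 17 tRNAs with a mean of at least 100 counts, the log2 fold change went with the mean log2 fold change of the neighbouring mRNA or rRNA genes (Pearson's r = 0.66, Spearman's rho = 0.63). This is a description across genes of the same libraries that share reads at their junctions, and no p is given. Several of the 17 have the same neighbours, so they are fewer than 17 separate points. Of the tRNAs with fewer counts, mt-Tf and mt-Tv changed in the direction of their neighbours. mt-Td, mt-Tk and mt-Tt did not, at -0.22, -0.30 and -0.27 against 0.34, 0.21 and 0.25. By strand, 0 of 14 tRNAs on the plus strand rose and 2 fell by edgeR. Of the 8 on the minus strand, 2 rose and 1 fell. Among all genes, 19% were called higher and 18.8% lower. The plus strand also holds mt-Tf, mt-Tv, mt-Td, mt-Tk and mt-Tt, with means of only 11.9 to 68.1 counts, so the strands were not compared at equal depth. On the plus strand 0 rose and 3 fell at an unadjusted p under 0.05, in DESeq2 and in limma-voom, and 0 and 2 in limma-trend. The cluster of 4 minus-strand tRNAs between mt-Nd2, which fell, and mt-Co1, which rose, comprises mt-Ta (alanine), mt-Tn (asparagine), mt-Tc (cysteine) and mt-Ty (tyrosine). Their log2 fold changes were -0.04, 0.03, 0.03 and 0.07, and the 95% intervals of all 4 lay between -0.14 and 0.17. mt-Tw (tryptophan), on the plus strand beside them, had -0.10 and did not pass.

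**Figure D5:**
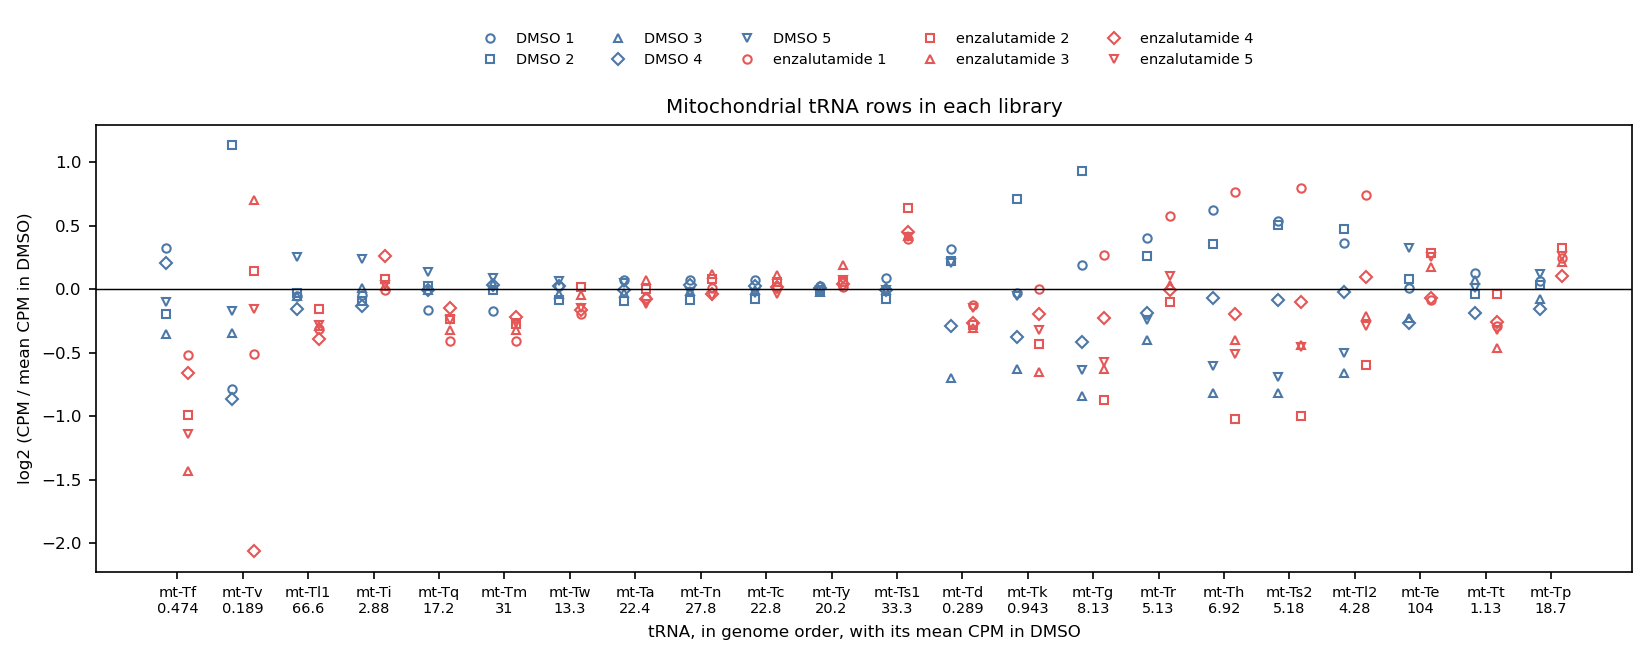
Log2 of each library's CPM over the mean CPM in DMSO (y axis) for the 22 tRNA rows in genome order (x axis, with the mean DMSO level under each name). Each marker shape is a replicate number in its group; mt-Ts1 and mt-Tp lie above the line in all enzalutamide libraries, and mt-Tg, mt-Th, mt-Ts2 and mt-Tl2 spread widely within both groups.

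A set of plus-strand tRNAs varied from library to library more than between the groups. mt-Th, the histidine tRNA, measured 10.7, 8.86, 3.92, 6.61 and 4.56 CPM in DMSO and 11.8, 3.41, 5.24, 6.05 and 4.86 CPM in enzalutamide. DMSO libraries 1 and 2 and enzalutamide library 1 were high. mt-Ts2 and mt-Tl2, which follow mt-Th as serine and leucine tRNAs, had the same 3 libraries at the top, at 7.35 to 8.99 CPM against at most 4.87 for mt-Ts2, and at 5.51 to 7.15 CPM against at most 4.59 for mt-Tl2. mt-Tr, the arginine tRNA, also had these 3 libraries on top, with 7.65 CPM in enzalutamide library 1. mt-Tg, the glycine tRNA, had the same 3 libraries on top. It stood at 9.29 and 15.5 CPM in DMSO libraries 1 and 2 and at 9.78 CPM in enzalutamide library 1, with 4.45 to 6.93 CPM elsewhere.

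Fold changes of these 5 rows lay between -0.35 and 0.14, and none passed. Enzalutamide library 1 also held the largest share of short nuclear non-coding RNA genes, 0.0209% of counts against 0.0141% to 0.0171% in the other libraries. In the same library Rn7sk, a short nuclear RNA made by RNA polymerase III, stood at 7.56 CPM against 0.48 to 2.01 elsewhere. DMSO libraries 1 and 2 had no such excess of Rn7sk, at 0.766 and 0.705 CPM. The part of library preparation in the spread of these tRNAs was not tested.

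The remaining tRNAs had few counts. mt-Tf, the phenylalanine tRNA that opens the transcribed unit, measured 0.594, 0.414, 0.372, 0.547 and 0.44 CPM in DMSO and 0.331, 0.238, 0.176, 0.3 and 0.215 CPM in enzalutamide, from 12 to 38 counts per library. The groups did not overlap, and yet the log2 fold change of -0.91 (95% interval -1.59 to -0.22) missed the threshold at this depth (adjusted p = 0.0507). It passed in 5 alternative fits, with the lowest adjusted p at 0.0381. mt-Tv (valine), mt-Td (aspartate), mt-Tk (lysine) and mt-Tt (threonine) were each at most 1.55 CPM in every library, and their 95% intervals spanned 0. mt-Ti (isoleucine), at 2.62 to 3.45 CPM, had a log2 fold change of 0.08 (95% interval -0.17 to 0.34). mt-Te measured 105, 110, 88.6, 86.4 and 130 CPM in DMSO and 97.9, 127, 117, 98.9 and 124 CPM in enzalutamide, with a log2 fold change of 0.12 that did not pass (95% interval -0.07 to 0.31, adjusted p = 0.36).

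The nuclear genes that act on mitochondrial DNA and RNA were taken as lists. Of 8 genes of mitochondrial transcription, 0 passed in either direction by edgeR, DESeq2, limma-voom or limma-trend, 1 was higher at an unadjusted p under 0.05, and the median was 0.02. With total-count scaling 2 rose, and with GC and length trends removed 2 fell. For Polrmt, the mitochondrial RNA polymerase, the value was -0.04 (adjusted p = 0.595), and for Tfam, which packages and bends mitochondrial DNA for initiation, -0.02 (adjusted p = 0.798). Of 15 genes of replication and upkeep, 4 rose and 1 fell, with a median of 0.04, where 37.8% of all genes were called. Polg, the DNA polymerase, had -0.06 (adjusted p = 0.25), and the helicase Twnk, under its older symbol Peo1, had 0.07 (adjusted p = 0.213). The 4 were Slc25a33 and Slc25a36, which carry pyrimidine nucleotides into the matrix, at 0.65 and 0.35, with Top1mt at 0.29 and Rrm2b at 0.21. The gene that fell, named after its value was seen, was the DNA ligase Lig3, by 0.17.

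Of 30 genes that cut or modify mitochondrial RNA, 5 rose and 3 fell, with a median of -0.01, which is no more calls than the 19% higher and 18.8% lower among all genes. Elac2, which cuts the 3′ ends of tRNAs out of the precursor, fell by 0.41 (SE 0.0514, adjusted p = 7.91e-06), from 44.9 ± 2.83 to 33.9 ± 1.64 CPM (SD, n = 5 each). Fastk, which is needed for the mt-Nd6 mRNA, rose by 0.26, from 129 ± 5.46 to 154 ± 6.75 CPM (adjusted p = 3.7e-05). Fastkd1 rose by 0.25, and Tbrg4, also called Fastkd4, fell by 0.20. The others called, named after their values were seen, were Ngrn, Mrm1 and Rpusd3 among those that rose and Mto1 among those that fell. Of 8 genes of polyadenylation, stability and decay, Lrpprc alone passed and rose by edgeR (0 fell at an unadjusted p under 0.05 or in DESeq2, limma-voom and limma-trend). Lrpprc, which binds and stabilises mitochondrial mRNAs, went from 385 ± 9.59 to 422 ± 7.83 CPM (log2 fold change 0.13, adjusted p = 0.000971). Mtpap, the mitochondrial poly(A) polymerase, had -0.03 (adjusted p = 0.701).

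Among 8 regulators of mitochondrial biogenesis, 1 rose and 3 fell, with a median of -0.04, where 19% of all genes were called higher and 18.8% lower. Ppargc1a, the coactivator PGC-1α, rose by 0.38 (SE 0.0373, adjusted p = 4.09e-07), from 213 ± 5.95 to 278 ± 15.6 CPM. Nrf1 fell by 0.20, Gabpb1 by 0.16 and Pprc1 by 0.10. Among 14 genes listed for mitochondrial translation, not all of them translation factors, 1 rose and 3 fell, beside 37.8% of all genes called in either direction. The elongation factor Gfm1 fell by 0.41 (adjusted p = 2.33e-08) and Tufm and Letm1 each by 0.13, while Guf1 rose by 0.29.

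The nuclear subunits of complexes III, IV and V were called lower more often than higher, where 19% of all genes were called higher and 18.8% lower. For complex IV, 0 of 11 nuclear subunits rose and 5 fell (median -0.11), beside 3 of 3 mitochondrial mRNAs that rose. Cox6c fell by 0.23 and Ndufa4, a subunit of complex IV despite its name, by 0.20. For complex V, 0 of 17 rose and 11 fell (median -0.15), among them Atp5b by 0.21 and Atp5g3 by 0.27, while mt-Atp6 and mt-Atp8 rose. For complex III, 1 of 9 rose and 5 fell (median -0.14), beside the rise of mt-Cytb. Uqcrb fell by 0.29 and Uqcrq rose by 0.27. For complex I, 5 of 36 rose and 10 fell (median -0.08), so 15 were called, a share near the 37.8% of all genes. Ndufb6 fell by 0.26 and Ndufa6 rose by 0.31. At an unadjusted p under 0.05 and in DESeq2, limma-voom and limma-trend, 0 nuclear subunits of complex IV or V were higher. With total-count scaling the medians stayed below 0, and 4 subunits of complex IV and 8 of complex V fell. Enzalutamide library 5 was the lowest enzalutamide library for each nuclear subunit named here. It held 173 CPM of Cox6c against 204 to 224 in the other enzalutamide libraries, and 2156 CPM of Atp5b against 2296 to 2414. The part of that library in these medians and calls was not tested. The difference between the mitochondrial and the nuclear subunits was not itself tested.

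Of RNAs kept in the nucleus, Neat1 and Meg3 fell by 0.79 and 0.44, and the other 2 tested did not pass. Log2 fold changes of the 4 tested ran from -0.79 to 0.14, so they did not all go down. Among all genes, 19% were called higher and 18.8% lower. The summed level of this list was 1148 to 1600 CPM in DMSO and 884 to 1071 CPM in enzalutamide. This fall came beside the rise in the share of mitochondrial counts, and its part in that rise was not tested.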

How the data were processed

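RNA captured by its poly(A) tail was sequenced from αTC1 cells in 5 DMSO and 5 enzalutamide libraries, grouped by their titles and treatment labels. Tools listed in the submitters' processing notes are HISAT2, StringTie and DESeq2, and the build is mm10; neither versions nor roles are stated. The authors deposited whole-number counts per gene, which were used for all main values. They also deposited a signal per gene scaled by library, used in an alternative. No column was left unused. Strand setting and the handling of reads with several matches were not given in the sources used here.

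Members were all rows whose symbol begins with mt-. The members, the gene lists and the tests were chosen with earlier results of these data known. Genes were filtered by filterByExpr, scaled by edgeR's TMM factors and tested on all 14156 remaining genes with edgeR 4.0.16 (quasi-likelihood test, no covariates, Benjamini-Hochberg adjustment, threshold 0.05) in R 4.3.3. Intervals are 95% intervals from a normal quantile and the SE, which is the log2 fold change over the square root of F. Each ± is an SD over libraries. Exact permutation tests used scipy 1.17.1. Shares are of all counts in a library, and totals of at least 59557697 counts make counting error small beside the spread between libraries, except for rows with few counts.

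Named genes were all members, Polrmt, Tfam, Polg, Twnk, Lrpprc, Mtpap, Ppargc1a and Gcg, up to 4 genes with the lowest adjusted p in each list, and nuclear copies with a mean of at least 100 counts. Of the markers of α cells and fibroblasts that the lists also hold, those of α cells were 0 higher and 5 lower, and those of fibroblasts 1 higher and 1 lower. No genome sequence was used, so nuclear copies were sought with BLAST+ 2.17.0 among GENCODE M21 transcripts, from which sequences and positions also came. Of the identifiers, 96.3% were found in that annotation.

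Every pair of libraries within a group differed by more than sampling noise (chi-square over genes, 9.23 to 37.3 per degree of freedom), so all 10 were kept. The labels call them biological replicates without naming separate cultures, so the p-values speak only of the spread among these libraries, which may be technical. Alternatives were other scalings, other filters, removal of per-library trends with GC content and length, DESeq2 1.42.0, limma-voom and limma-trend (limma 3.58.1), the replicate number as a block, summing of nuclear copies and leaving out each library. Leaving out DMSO library 5 and enzalutamide library 2 together was added after the data were seen. The fit was tested on simulated counts.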

Additional observations from a re-analysis of the deposited data

Results flagged for a closer look

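Within groups of 5, a library was singled out when the gap to its nearest neighbour took up most of the group's range by Dixon's criterion. Chance does this in about 1 in 20 groups, and 17 of 94 groups examined were singled out, many of them overlapping sums of the same mRNAs.

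Enzalutamide library 2 was the high one in most of them. It stood at 6431 CPM for mt-Nd1 (next 5823), 4986 CPM for mt-Nd2, 6600 CPM for mt-Co2 (next 5912), 4475 CPM for mt-Atp6, 9577 CPM for mt-Cytb (next 8743) and 51.8 CPM for mt-Ts1. The same library was highest in the share of counts from all mitochondrial rows (7.88%), from the mRNAs (7.74%), and from complex III (0.961%) and complex IV (3.39%). With that library left out, the mitochondrial rows took 7.3% of counts in enzalutamide.

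DMSO library 5 was the high one for mt-Tl1 (79.6 CPM), mt-Nd4 (5036 CPM, next 4421), and the shares of complex I (2.73%) and complex V (0.512%). Among the remaining flags, mt-Rnr1 was low in enzalutamide library 4 (155 CPM), mt-Tr was high in enzalutamide library 1 (7.65 CPM) and mt-Tv was high in DMSO library 2 (0.414 CPM). With both DMSO library 5 and enzalutamide library 2 left out, 9 mRNAs were called higher and 3 lower, and mt-Nd3 and mt-Nd4 were among them.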

How the results depend on the processing

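When each member's log2 fold change was compared with its value under each alternative, 836 comparisons kept direction and side of the threshold, 18 changed sign, 22 came to pass and 7 ceased to pass. No called member changed sign under the alternatives run. The sign changed only for members that were not called, mt-Tg at -0.35 among them. With GC and length trends removed it did for mt-Tv (0.0016), mt-Tw (0.0078) and mt-Ta (0.019), and with the replicate number as a block as well for mt-Tw (0.0046) and mt-Ta (0.018). With each library left out in turn the log2 fold change ran from -0.44 to 0.38 for mt-Tv, -0.56 to 0.02 for mt-Tg, -0.00801 to 0.0451 for mt-Nd4l, -0.50 to 0.062 for mt-Th, -0.46 to 0.0591 for mt-Ts2 and -0.23 to 0.17 for mt-Tl2. The count of mRNAs called lower was 1 with total-count scaling, and that of tRNAs called lower was 1 with GC and length trends removed. In the make-up of the mRNAs, leaving mt-Co1 out of the sum gave enzalutamide minus DMSO values of 0.0601 percentage points for mt-Atp8, 0.409 for mt-Atp6, 0.178 for mt-Co3 and 0.736 for mt-Nd5, all negative before, and moved mt-Co2 to 1.2, mt-Cytb to 1.49 and mt-Nd4 to -0.166. With nuclear copies summed mt-Nd4l moved to -0.277. By complex it gave -3.34 for complex I, 1.49 for complex III, 1.38 for complex IV and 0.469 for complex V; a smaller total follows from that construction. Leave-one-out ranges were -0.0618 to 0.00265 for mt-Atp6 and -0.224 to 0.0595 for mt-Nd5. Over all genes tested, the same replicate numbers did not pair the libraries: deviations of same-numbered libraries correlated at -0.0085 to 0.045. Single members can differ from this. The mt-Rnr2 to mt-Rnr1 ratio was lower in enzalutamide than in DMSO at every replicate number. With the number as a block, mt-Nd3 (adjusted p = 0.0339) and mt-Nd4 (adjusted p = 0.0447) came to pass. With the number as a replicate block, 5296 genes were called, and the mt-Rnr2 to mt-Rnr1 log2 ratio, still -0.23, had an exact sign-flip permutation p = 0.0625, the smallest that 5 pairs allow. Depth limits mt-Tf, mt-Tv, mt-Td, mt-Tk and mt-Tt. The other causes of change were not tested.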
